A study of Homo sapiens with 8 samples.

Results

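Interferon-stimulated genes were examined in PANC-1 cells after treatment with eupalinolide B (EB). The set held 55 genes, chosen by symbol from a list of interferon sensors, receptors, signaling factors and effectors, and all 55 were found among the 20263 genes of the deposited table. PANC-1 is an established human pancreatic ductal carcinoma line, and EB is a sesquiterpene lactone extracted from Eupatorium lindleyanum. Cells received either 10 μM EB or its solvent DMSO for 24 h, with 4 libraries per group, and no interferon, virus or interferon-inducing agent was named for either group. The methods describe the 4 libraries of a group as biological replicates but elsewhere speak of triplicates, so the p-values measure the spread between these libraries, which may be technical in part, and say nothing of other lines. In the table the columns carried the letters C and H. C was read as the DMSO control and H as EB, the only other group of the series, and every direction given here rests on that reading.

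Expression was given as TPM, a transcript abundance that divides each gene by its length and sets every library to the same total, and the table came without read counts. The depth behind each value is therefore unknown. Mitochondrially encoded genes took between 17.0% and 39.0% of the TPM in DMSO, with DMSO replicate 4 the highest, and between 11.6% and 20.3% in EB, which lowers or raises every other gene of a library on this scale. Of the markers for ductal epithelium, KRT8, KRT18 and KRT19 were abundant, at 135.5 TPM or more in every library, while KRT7, EPCAM and CDH1 were below 1 TPM throughout. KRT8, KRT18 and KRT19 themselves rose with EB, by 1.20, 1.49 and 1.80 on the log2 scale, opposite to most of the members. Interferon genes are active in leukocytes and plasmacytoid dendritic cells, but the defining markers PTPRC, CD3E and CLEC4C were listed at 0 in all 8 libraries. The summed TPM of 7 leukocyte markers lay between 1.30 and 2.39 in DMSO and between 1.33 and 2.58 in EB. The 4 plasmacytoid dendritic cell markers summed to between 0.70 and 2.03 in DMSO and to between 0.185 and 0.750 in EB, nearly all of it IL3RA. The sum of 6 fibroblast and endothelial markers was 1.75 to 2.29 in DMSO and 0.928 to 1.17 in EB, most of it COL1A1, and its part in the results was not tested. In bulk RNA, fewer cells of a given state and less RNA per cell cannot be told apart.

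The interferon response begins when cytosolic sensors such as RIG-I and MDA5 detect viral or unusual double-stranded RNA and relay the signal through MAVS to the kinases that activate IRF3 and IRF7. Secreted type I interferons bind the IFNAR1 and IFNAR2 receptor, whose Janus kinases phosphorylate STAT proteins. STAT2 and IRF9 are parts of the resulting ISGF3 complex, which binds the interferon-stimulated response element (ISRE). Interferon gamma signals through IFNGR1 and IFNGR2 to gamma-activated sites (GAS) and induces IRF1. The induced genes encode enzymes that degrade or edit RNA, proteins that block virus entry, and a ubiquitin-like system built on ISG15. Many tumor lines keep part of this program switched on without added interferon.

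The interferon-stimulated genes were, as a group, lower in EB-treated cells. A gene was tested if its TPM reached 1 in at least 4 libraries, which 47 of the 55 did, and was called if its adjusted p in limma was under 0.05. Of the 47 tested members, 30 fell and 2 rose, whereas 25.1% of all 11725 tested genes fell and 15.2% rose. The members that fell made up 63.8% of those tested, and the remaining 15 were not called. Their median log2 fold change was -0.84, against -0.11 for all tested genes. The mean log2(TPM + 1) of the tested members was between 4.36 and 4.67 in the 4 DMSO libraries and between 3.63 and 3.81 in the 4 EB libraries.

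The larger changes lay on the same side. At the cutoffs the study used, a log2 fold change beyond 1.5 in size with a raw p below 0.05, 12 members were lower and none was higher, compared with 1.54% of all tested genes lower and 0.537% higher. The study's own list held slightly more upregulated than downregulated genes. Here 181 genes were lower and 63 higher, so the study's list was not reproduced. In order of size the 12 members were IFIH1, IFITM1, OAS3, IRF1, DTX3L, PARP9, IFIT3, OAS2, BST2, OASL, PARP14 and OAS1. Adding those that fell with a log2 fold change under -1 brought the count to 19 members, against 6.5% of all tested genes. In 28 members every EB library was below every DMSO library, an arrangement found in 20.3% of all tested genes, and in 2, ISG20 and IRF3, every EB library was above, as in 16.6% of all tested genes. The groups overlapped in the other 17 members. OAS2 and OASL passed the filter on low values through their DMSO libraries alone, so a low EB level was built into their selection. Without this pair 28 of 45 tested members fell (62.2%), 17 of them with a log2 fold change under -1, and 10 were past the study's cutoffs. The level map of the 47 genes shows the separation by library.

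**Figure D1:**
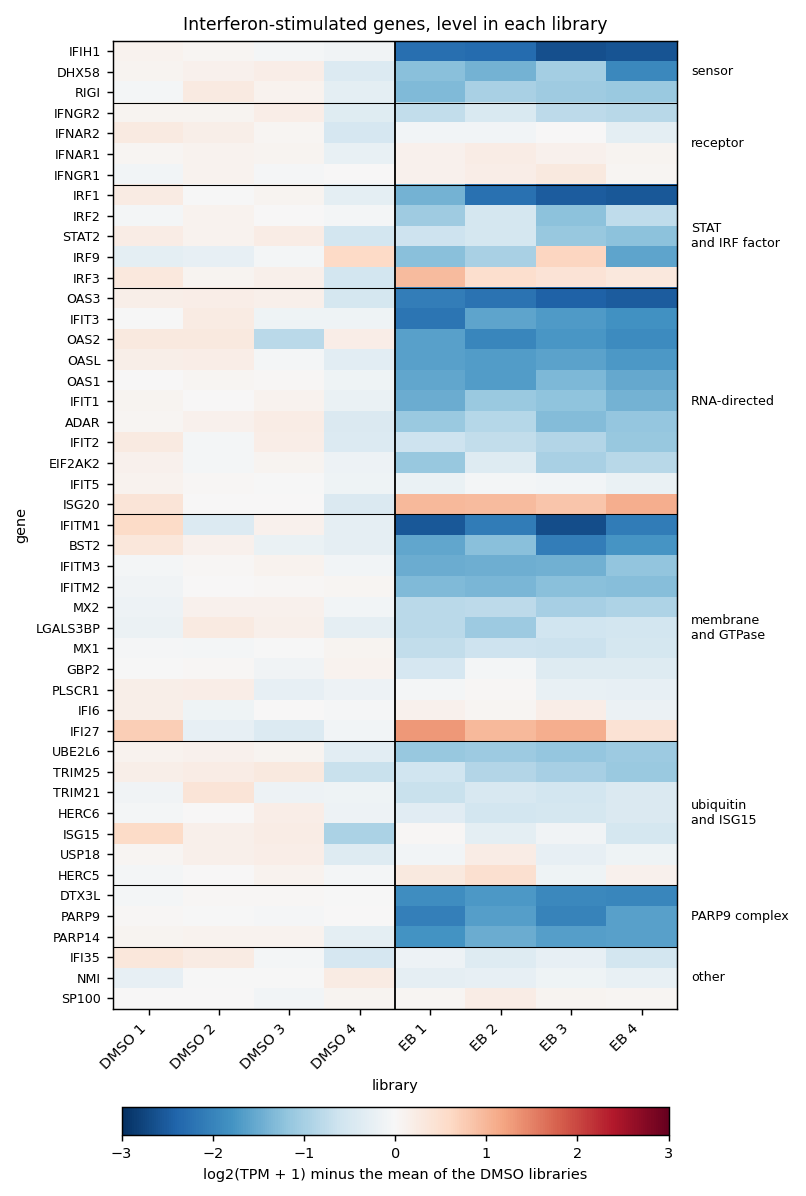
Level of the 47 tested interferon-stimulated genes in each of the 8 libraries, as log2(TPM + 1) minus the mean of the 4 DMSO libraries, with genes grouped by role and ordered by fold change within a role. Blue is below and red above the DMSO mean, and the upper genes of most roles are blue in all 4 EB libraries, with receptors and the last role near white.

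The promoters were read for the elements that define many interferon-stimulated genes. The 250 bases before each annotated start were available for 42 of the 55 members (RefSeq, GRCh38.p14). The core of the ISRE, written GAAANNGAA and searched on both strands, was present in 23 of the 42, or 54.8%, against 8.41% of the 27305 genes with a promoter sequence. The GAS, TTCNNNGAA, which reads the same on both strands, was present in 9 of the 42, or 21.4%, against 8.09%. The ISRE core was found in 11 of the 23 members with a promoter sequence that fell, and in 8 of the 13 that were tested and did not fall, so the letters did not separate the members by their response. A match is a description of the sequence and does not show that a factor bound there. A stretch is printed for 6 members that fell and for 3 that did not, in the direction of the gene, with the ISRE core in capitals. Where the core lies on the opposite strand it reads TTCNNTTTC, and in IFIH1 and ISG15 successive matches overlap or adjoin.
Fell, IFIH1, minus strand, chr2:162318813-162318863: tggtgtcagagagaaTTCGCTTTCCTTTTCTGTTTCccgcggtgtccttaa
Fell, OAS3, plus strand, chr12:112938316-112938354: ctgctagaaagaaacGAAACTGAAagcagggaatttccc
Fell, IFIT3, plus strand, chr10:89327861-89327899: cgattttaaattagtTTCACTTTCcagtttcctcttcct
Fell, IFIT1, plus strand, chr10:89392493-89392544: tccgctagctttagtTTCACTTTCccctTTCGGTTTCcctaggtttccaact
Fell, IFITM1, plus strand, chr11:313985-314023: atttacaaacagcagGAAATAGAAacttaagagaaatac
Fell, PARP14, plus strand, chr3:122680795-122680833: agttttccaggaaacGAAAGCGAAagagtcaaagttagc
Not called, IFIT5, plus strand, chr10:89414509-89414567: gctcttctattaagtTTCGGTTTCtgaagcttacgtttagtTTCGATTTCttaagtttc
Not called, ISG15, plus strand, chr1:1013369-1013419: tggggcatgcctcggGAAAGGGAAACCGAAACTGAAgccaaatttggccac
Rose, ISG20, plus strand, chr15:88638932-88638970: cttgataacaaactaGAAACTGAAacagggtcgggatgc
The promoter of IRF1, a classic target of interferon gamma, held no ISRE core in this window but a GAS 116 to 124 bases before the start. It is shown in the direction of the gene, on the minus strand, with the GAS in capitals.
IRF1, minus strand, chr5:132490874-132490912: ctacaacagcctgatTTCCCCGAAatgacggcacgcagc

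All 3 cytosolic RNA sensors fell, beside 25.1% of all tested genes. IFIH1, which encodes MDA5, the receptor for long double-stranded RNA, was at 9.64, 9.38, 8.48 and 8.18 TPM in the DMSO libraries and at 1.07, 0.984, 0.597 and 0.646 TPM in the EB libraries. Its mean fell from 8.92 ± 0.701 to 0.825 ± 0.238 TPM (SD, n = 4 per group), a 10.8-fold difference (log2 fold change -2.45, SE 0.13, adjusted p = 8.64e-06 in limma). With the pseudocount of 1 this was the lowest log2 fold change of the tested members, whereas with a pseudocount of 0.1 OASL was lower, at -4.04 against -3.32 for IFIH1. The separation was wide, as the highest EB library held less than the lowest DMSO library by several TPM.

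RIGI, which encodes RIG-I, the receptor for short RNA with a 5′ triphosphate, was measured at 5.75, 7.48, 6.67 and 4.75 TPM with DMSO and 1.85, 2.63, 2.41 and 2.25 TPM with EB. The groups did not overlap, and the log2 fold change was -1.12 (SE 0.15, adjusted p = 0.000662). DHX58 encodes LGP2, a relative that lacks signaling domains and tunes the other sensors. Its values of 13.7, 14.2, 15.1 and 9.55 TPM under DMSO and 4.88, 4.22, 5.89 and 2.63 TPM under EB also did not overlap, with DMSO replicate 4 the lowest control and EB replicate 4 the lowest treated library. The log2 fold change of DHX58 was -1.40 (SE 0.21, adjusted p = 0.00113).

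The receptors changed little by comparison, with 1 of 4 called lower (25.0%), beside 25.1% of all tested genes. IFNGR2, the signaling chain of the interferon gamma receptor, was the only one of the 4 called, at 156.2, 156.3, 169.2 and 113.2 TPM in DMSO and 88.0, 106.7, 85.1 and 82.7 TPM in EB. Its groups were close but did not overlap (log2 fold change -0.70, SE 0.16, adjusted p = 0.00688), and 15% of its exon bases are shared with TMEM50B on the opposite strand. IFNGR1, the ligand-binding chain of the same receptor, had 18.5, 21.2, 18.9 and 19.9 TPM in DMSO and 21.5, 22.6, 24.1 and 20.3 TPM in EB. The groups overlapped, and the 95% interval of the log2 difference ran from -0.09 to 0.42. IFNAR1, a chain of the type I interferon receptor, stood at 14.8, 15.4, 15.1 and 12.2 TPM with DMSO against 15.8, 16.9, 15.8 and 15.1 TPM with EB. Here too the groups overlapped, with an interval of -0.12 to 0.41, although IFNAR1 was called higher with median-ratio scaling (log2 fold change 0.25), quantile normalization (0.32) and the length and GC correction (0.58). For IFNAR2, its partner, the interval was -0.51 to 0.29, with 9.29 to 16.7 TPM in DMSO and 11 to 13.9 TPM in EB. The receptors for both interferon classes were thus measurable in every library.

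Among the STAT and IRF factors, IRF1, IRF2 and STAT2 fell, IRF3 and IRF9 were not called, and IRF7 was too low to test. Thus 3 of 5 tested factors were lower and none was higher, beside 25.1% and 15.2% of all tested genes. IRF1, an activator induced by interferon gamma and by NF-kappa B, was at 72.5, 60.7, 64.8 and 49.5 TPM in DMSO and at 22.3, 12.3, 10.0 and 9.65 TPM in EB. Its mean fell from 61.9 ± 9.6 to 13.6 ± 5.95 TPM, a 4.56-fold difference (log2 fold change -2.17, SE 0.24, adjusted p = 0.000278), and EB replicate 1 stood above the other EB libraries while staying below all controls. Of the IRF1 exon bases, 22.9% lie opposite IRF1-AS1. Whether strand was used in counting is not given in the sources used here, so reads of overlapping genes may not have been told apart.

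IRF2 can oppose IRF1 at the same sites. It was at 22.5, 25.3, 24.0 and 22.7 TPM in DMSO against 10.7, 15.9, 9.48 and 13.5 TPM in EB. All EB libraries were below all controls, with a log2 fold change of -0.90 (SE 0.16, adjusted p = 0.00248). STAT2, the ISGF3 subunit that carries its transactivation domain, was at 19.5, 17.8, 19.3 and 10.9 TPM in DMSO and at 10.3, 11, 6.88 and 6.44 TPM in EB. DMSO replicate 4 lay within the EB range, and the log2 fold change was -0.89 (SE 0.23, adjusted p = 0.0124).

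IRF9, the DNA-binding subunit of ISGF3, was at 6.84, 7.18, 8.20 and 13.7 TPM in DMSO and at 3.06, 3.93, 14.0 and 2.21 TPM in EB. The other 3 EB libraries were below all controls, but EB replicate 3 was above them (log2 fold change -0.79, SE 0.43, adjusted p = 0.165). Without EB replicate 3 the log2 fold change was -1.27 with an adjusted p of 0.00763. IRF9 shares 23.9% of its exon bases with another annotated gene on the same strand. IRF3, which is activated by phosphorylation and is not itself a strongly induced gene, ran the other way, at 65.0, 54.9, 58.5 and 35.3 TPM in DMSO and 101.9, 74.3, 69.9 and 65.6 TPM in EB. No EB library was below the highest control, yet the adjusted p was 0.0605 for a log2 fold change of 0.55 (SE 0.21). IRF3 passed the threshold with median-ratio scaling (adjusted p = 0.00384), with quantile normalization (adjusted p = 0.0145), with the length and GC correction (adjusted p = 0.0373) and without DMSO replicate 1 (adjusted p = 0.0484). IRF3 shares 19.3% of its exon bases with BCL2L12 on the opposite strand. IRF7, the inducible factor of the second wave of interferon production, was below 1 TPM in all 8 libraries.

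**Figure D2:**
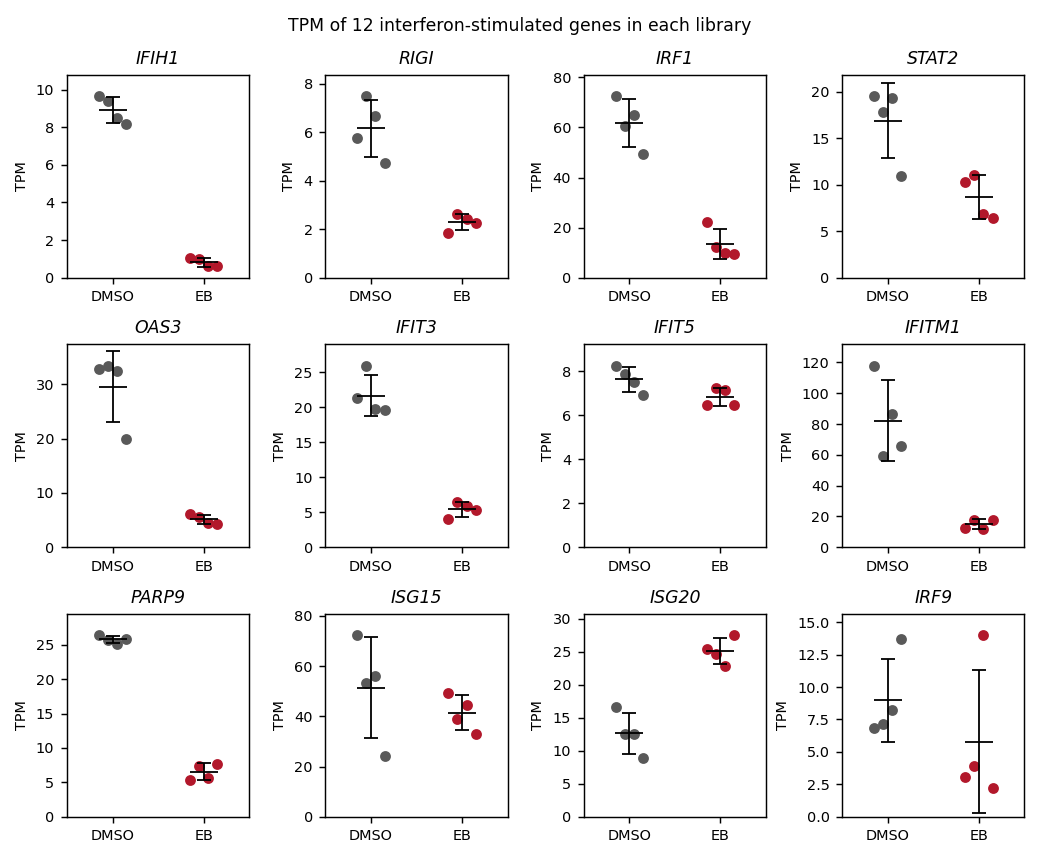
TPM of 12 interferon-stimulated genes in the 4 DMSO and the 4 EB libraries, with each point a library, the horizontal mark the mean and the bars the SD, on linear axes that start at 0. IFIH1, RIGI, IRF1, OAS3, IFIT3, IFITM1 and PARP9 show no overlap with EB lower, ISG20 shows none with EB higher, and IRF9 shows EB replicate 3 above the controls.

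Of the 11 tested RNA-directed effectors, 9 were lower and 1 was higher, beside 25.1% and 15.2% of all tested genes. The 9 include OAS2 and OASL, for which a low EB level was built into their selection. The oligoadenylate synthetases make 2′,5′-linked oligoadenylates that activate RNase L, and OAS1, OAS3 and OAS2 lie side by side on chromosome 12 (OAS1 at chr12:112905856-112933219 and OAS2 ending at 113011723). OAS3, the most abundant of them, was at 32.7, 33.4, 32.4 and 19.8 TPM in DMSO and at 6.09, 5.48, 4.55 and 4.33 TPM in EB. Even DMSO replicate 4, the lowest control, stayed well above the EB libraries, and the mean fell 5.79-fold (log2 fold change -2.30, SE 0.19, adjusted p = 5.71e-05).

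OAS1 was at 7.44, 7.73, 7.53 and 6.68 TPM in DMSO and 1.82, 1.62, 2.28 and 1.88 TPM in EB, again without overlap (log2 fold change -1.53, SE 0.12, adjusted p = 4.8e-05). OAS2 was at 5.29, 5.30, 1.90 and 4.90 TPM in DMSO and at 0.643, 0.321, 0.512 and 0.370 TPM in EB. DMSO replicate 3 was apart from the other controls but still above EB, and the log2 fold change was -1.81 (SE 0.24, adjusted p = 0.00064). OASL, a relative without synthetase activity that enhances RIG-I signaling, was at 2.72, 2.79, 2.21 and 1.67 TPM in DMSO and at 0.0694, 0.0437, 0.0886 and 0 TPM in EB. The log2 fold change of OASL was -1.66 (SE 0.14, adjusted p = 6.44e-05), a value that the pseudocount of 1 holds down. With a pseudocount of 0.1 the log2 fold changes of OAS2 and OASL were -2.91 and -4.04.

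The IFIT proteins bind foreign RNA 5′ ends and block its translation, and their genes form a cluster on chromosome 10. The 4 members of the cluster did not move alike. IFIT3 was at 21.3, 25.9, 19.7 and 19.6 TPM in DMSO and at 3.96, 6.50, 5.87 and 5.37 TPM in EB, with a log2 fold change of -1.82 (SE 0.16, adjusted p = 7.65e-05). IFIT1 was at 29.1, 28.1, 29.99 and 23.7 TPM in DMSO and 9.26, 12.2, 11.4 and 9.66 TPM in EB (log2 fold change -1.31, SE 0.13, adjusted p = 0.000184). In both genes every EB library was far below the controls.

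IFIT2 fell less, from between 34.3 and 55.7 TPM in DMSO to between 20.4 and 29.6 TPM in EB (log2 fold change -0.84, adjusted p = 0.00561). IFIT5, the last of the cluster, was at 8.26, 7.87, 7.52 and 6.92 TPM in DMSO and at 6.47, 7.24, 7.17 and 6.47 TPM in EB. Its groups overlapped, with a log2 difference of -0.14 and a 95% interval of -0.39 to 0.11, and it was called lower with mitochondrial genes removed (-0.31). The promoter stretch of IFIT5 printed above holds 2 ISRE cores. The log2 ratio of IFIT3 to IFIT5 within a library, which rescaling of the libraries leaves nearly unchanged, went from a mean of 1.38 in DMSO to -0.30 in EB, a difference of -1.68. The corresponding difference was -0.52 for IFIT3 against IFIT1 and -0.98 for IFIT3 against IFIT2.

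ADAR, the enzyme that converts adenosine to inosine in double-stranded RNA and so hides cellular RNA from MDA5, was at 114.6, 120.2, 127.6 and 81.2 TPM in DMSO and 50.3, 59.6, 43.7 and 48.5 TPM in EB. The groups were well apart (log2 fold change -1.11, SE 0.17, adjusted p = 0.00115), and with a correction for transcript length and GC content the log2 fold change was -0.66. EIF2AK2, which encodes PKR, the kinase that stops translation when it binds double-stranded RNA, went from between 19.0 and 23.3 TPM to between 9.14 and 16.2 TPM (log2 fold change -0.83, adjusted p = 0.00484). With the same correction, its log2 fold change was -0.29 and its adjusted p was 0.104. ISG20, a 3′ to 5′ exonuclease for single-stranded RNA, was the exception of the class. It was at 16.6, 12.6, 12.5 and 8.94 TPM in DMSO and at 25.4, 24.7, 22.8 and 27.5 TPM in EB, so that every EB library was above every control (log2 fold change 0.96, SE 0.17, adjusted p = 0.00246).

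Of the 11 tested membrane proteins and GTPases, 7 fell, 1 rose and 3 were not called. Of all tested genes, 25.1% fell and 15.2% rose. The IFITM proteins sit in the plasma and endosomal membranes and hinder virus fusion. IFITM1 was at 117.8, 59.4, 86.2 and 65.4 TPM in DMSO and 12.7, 17.6, 11.8 and 17.9 TPM in EB. Although its controls were spread widely, they remained above the EB libraries, and the mean fell 5.48-fold (log2 fold change -2.35, SE 0.23, adjusted p = 0.000142). IFITM2 was at 342.1, 374.4, 381.1 and 385.5 TPM in DMSO and 147.6, 143.6, 153.7 and 153.2 TPM in EB. IFITM3, the most abundant member, was at 622.4, 660.5, 694.8 and 611.4 TPM in DMSO and 229.5, 235.4, 237.4 and 286.2 TPM in EB. Both were tightly grouped, with log2 fold changes of -1.30 (SE 0.11, adjusted p = 6.33e-05) and -1.39 (SE 0.12, adjusted p = 7.65e-05). The 3 IFITM genes are related in sequence, and reads may have been divided among them unevenly, so their separate values are uncertain.

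BST2, or tetherin, which holds budding virus particles on the cell surface, was at 13.6, 11.7, 8.93 and 8.49 TPM in DMSO and 2.90, 3.79, 1.73 and 2.35 TPM in EB. Its groups were separate (log2 fold change -1.67, SE 0.20, adjusted p = 0.000403). The dynamin-like GTPases fell less. MX2 went from between 25.4 and 31.4 TPM to between 13.8 and 16.2 TPM (log2 fold change -0.88, adjusted p = 0.000823 in limma). MX1, the better known antiviral GTPase, was near the detection filter at 2.09 to 2.40 TPM in DMSO and 0.904 to 1.23 TPM in EB. Its log2 fold change was -0.63 (adjusted p = 0.00224 in limma), and -0.39 with quantile normalization. With a pseudocount of 0.1 MX1 was at -0.99 and MX2 at -0.92, so their order depended on the pseudocount. LGALS3BP, a secreted glycoprotein that binds galectins, fell from between 339.2 and 492.6 TPM to between 191.4 and 279.8 TPM (log2 fold change -0.76, adjusted p = 0.00768).

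IFI27, a small protein of the mitochondrial and nuclear membranes, was called higher on low values, at 1.21, 0.120, 0 and 0.245 TPM in DMSO and 2.28, 1.58, 1.83 and 0.779 TPM in EB. DMSO replicate 1 lay inside the EB range (log2 fold change 0.95, SE 0.27, adjusted p = 0.0188). The call was lost when DMSO replicate 2, DMSO replicate 3, EB replicate 1 or EB replicate 3 was left out, with adjusted p between 0.0524 and 0.0551, and with the length and GC correction, with an adjusted p of 0.0617. IFI6, a related mitochondrial protein, was not called, at 23.3 to 29.1 TPM in DMSO and 22.6 to 29.9 TPM in EB, with an interval of -0.24 to 0.35. GBP2, a GTPase that attacks vacuoles of intracellular microbes, missed the threshold (log2 fold change -0.33, adjusted p = 0.0663) but passed it with mitochondrial genes removed, with no filter on low values and without EB replicate 2 (adjusted p between 0.0206 and 0.0459). PLSCR1, a phospholipid scramblase, was not called (log2 fold change -0.12, adjusted p = 0.529). GBP1 was below 1 TPM everywhere, at 0.547 to 0.882 TPM in DMSO and 0 to 0.0255 TPM in EB.

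The summed TPM of the 55 members was between 2408 and 2938 in DMSO and between 1403 and 1440 in EB. IFITM3, LGALS3BP and IFITM2 supplied 47.5% to 55.5% of that sum in DMSO and 40.6% to 50.0% in EB, a large part of the sum in either group.

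ISG15 is a ubiquitin-like protein that is joined to targets by UBE2L6 and HERC5 and removed by USP18. The class of this system also includes antiviral TRIM ligases. Of its 7 tested members, 4 fell and none rose, beside 25.1% and 15.2% of all tested genes. UBE2L6, the conjugating enzyme, was at 143.6, 145.2, 141.1 and 107.3 TPM in DMSO and at 60.5, 62.2, 59.2 and 62.2 TPM in EB. The EB libraries were nearly alike and all below the controls (log2 fold change -1.11, SE 0.13, adjusted p = 0.000338). ISG15 itself was at 72.3, 53.3, 56.2 and 24.1 TPM in DMSO and 49.4, 39.0, 44.7 and 32.9 TPM in EB. DMSO replicate 4 was below every EB library, the groups overlapped, and the log2 difference was -0.22 with an interval of -0.88 to 0.44 (adjusted p = 0.582). Without DMSO replicate 4 it was -0.54 with an adjusted p of 0.0245, and with the length and GC correction it was -0.56 with an adjusted p of 0.0295.

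TRIM25, the ubiquitin ligase that modifies RIG-I, was at 51.1, 52.4, 55.3 and 27.9 TPM in DMSO and 29.2, 24.1, 22.2 and 20.5 TPM in EB. DMSO replicate 4 fell between the EB libraries, and the log2 fold change was -0.90 (SE 0.22, adjusted p = 0.0106), or -0.49 with the length and GC correction. TRIM21, the cytosolic antibody receptor, was at 33.6, 47.4, 32.5 and 33.1 TPM in DMSO and 22.4, 25.6, 24.4 and 26.7 TPM in EB. The groups did not overlap (log2 fold change -0.53, SE 0.15, adjusted p = 0.0176), but the adjusted p was 0.0524 without EB replicate 1. HERC6, a ligase related to HERC5, fell by 0.46 on the log2 scale (adjusted p = 0.0154), and its adjusted p was 0.0517 without DMSO replicate 3, 0.339 with quantile normalization and 0.0927 with the length and GC correction. HERC5, the main ISG15 ligase in human cells, and USP18, the ISG15 protease that also restrains IFNAR2, were not called, with intervals of -0.13 to 0.51 and -0.43 to 0.32, but HERC5 was called higher with quantile normalization (0.49) and with the length and GC correction (0.38). TRIM22 was at 0.179 to 0.755 TPM in DMSO and listed at 0 in all EB libraries.

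PARP9 and DTX3L form a complex that joins ADP-ribosylation to ubiquitination, and PARP14 is a related mono-ADP-ribosyltransferase encoded nearby. All 3 fell, beside 25.1% of all tested genes, and all 3 were lower past the study's cutoffs, beside 1.54%. PARP9 was at 26.4, 25.8, 25.1 and 25.8 TPM in DMSO and 5.41, 7.45, 5.69 and 7.7 TPM in EB (log2 fold change -1.84, SE 0.14, adjusted p = 3.93e-05). DTX3L was at 22.8, 24.2, 24.1 and 23.3 TPM in DMSO and 5.80, 6.47, 5.41 and 5.32 TPM in EB (log2 fold change -1.87, SE 0.11, adjusted p = 1.17e-05). In both genes the controls were closely grouped and the EB libraries lay far below them. PARP9 (chr3:122527924-122564577, minus strand) and DTX3L (chr3:122564338-122575203, plus strand) are transcribed in opposite directions. The outermost annotated 5′ ends of these genes lie 239 bases apart, and their exons share 139 bases. PARP14 was at 19.1, 19.6, 19.6 and 14.6 TPM in DMSO and 4.53, 5.81, 5.04 and 5.13 TPM in EB. Its lowest control was DMSO replicate 4, still above every EB library (log2 fold change -1.64, SE 0.14, adjusted p = 6.4e-05).

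The remaining members were either not called or not expressed. IFI35 was at 64.8, 60.5, 49.1 and 35.7 TPM in DMSO and 45.6, 38.7, 43.0 and 34.4 TPM in EB. NMI, its binding partner, was at 27.3, 32.2, 32.3 and 38.6 TPM in DMSO and 26.5, 27.1, 29.8 and 27.7 TPM in EB. SP100, a component of PML nuclear bodies, was at 33.2, 33.2, 31.3 and 35.2 TPM in DMSO and 34.7, 39.2, 35.3 and 34.6 TPM in EB. The groups overlapped in all 3, with intervals of -0.77 to 0.09 for IFI35, -0.51 to 0.08 for NMI and -0.14 to 0.36 for SP100. Without DMSO replicate 4 the log2 fold change of IFI35 was -0.51 with an adjusted p of 0.0146, and it was also called with mitochondrial genes removed (-0.53), with quantile normalization (-0.35) and with the length and GC correction (-0.62). The length and GC correction also called NMI lower (-0.48) and SP100 higher (0.51). IFI44 and IFI44L were listed at 0 in every library, and SAMD9, SAMD9L and XAF1 were at or below 0.117 TPM, so that several genes often used as markers of an interferon response were not measurable in these cells under either condition.

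**Figure D3:**
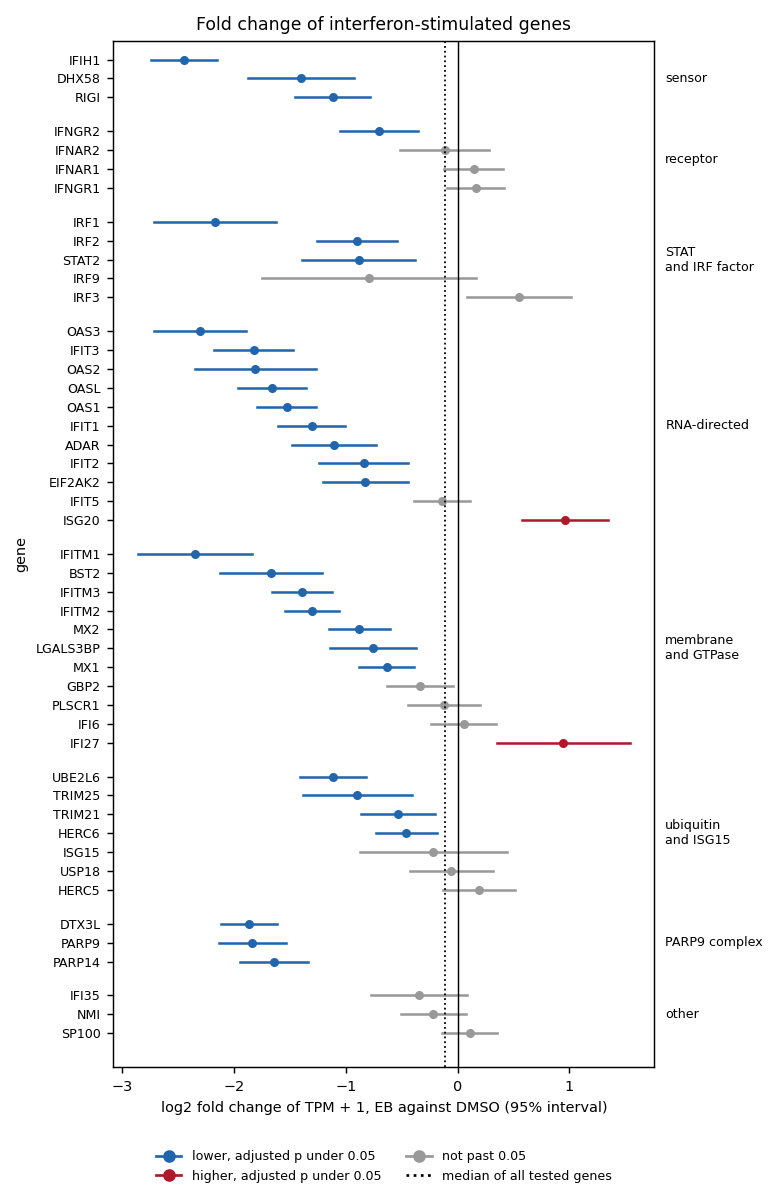
Log2 fold change of TPM + 1, EB against DMSO, with its 95% interval for the 47 tested members by role, where blue points fell, red points rose and grey points were not called, and the dotted line marks the median of all tested genes at -0.11. The values run from -2.45 for IFIH1 to 0.96 for ISG20, and the intervals of the last role and of the receptors other than IFNGR2 include 0.

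The members thus differed in size of change, and 8 pairs of related genes were compared within each library to describe this. The pairs and the order within each were chosen after their values were seen, so the differences are a description without a test. In every pair the log2 ratio in all EB libraries was below that in all DMSO libraries. IFIH1 fell further than RIGI, with a ratio 1.33 lower on the log2 scale in EB (mean 0.48 in DMSO and -0.85 in EB). IRF1 fell further than IRF2, by -1.27, and IFITM1 further than IFITM3, by -0.96, with the uncertainty stated above for the IFITM genes. The ratio of OAS3 to ISG15 differed by -2.09 and that of UBE2L6 to ISG15 by -0.90, so that enzyme and substrate of the ISG15 system changed unequally. A ratio within a library does not remove a trend with transcript length, which is 6599 bases for OAS3 and 637 for ISG15. With the length and GC correction OAS3 was at -1.86, UBE2L6 at -1.39 and ISG15 at -0.56.

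Since TPM depends on what else is in a library, the members were also followed under other scalings. In the 30 members that fell, the sign was negative under all 17 alternatives in which each could be fitted, and 27 of the 30 stayed past the threshold in all of them. The other 3 were EIF2AK2, HERC6 and TRIM21. Median-ratio scaling moved the median of all tested genes from -0.11 to -0.01 and that of the members from -0.84 to -0.73. It left 30 members lower and 4 higher, against 26.3% and 25.9% of all tested genes. Removing the mitochondrially encoded genes moved both medians down, to -0.28 and -1.03, with 33 members lower where 41.3% of all tested genes were lower. The members that fell had a median transcript length of 3331 bases, those tested that did not fall 1858 bases, and all tested genes 3216 bases. With a correction for length and GC content, 31 members were lower and 5 higher, against 21.8% and 24.5% of all tested genes. Without DMSO replicate 4, the library with the highest mitochondrial share, 32 members were lower and 2 higher, against 37.0% and 15.6%.

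**Figure D4:**
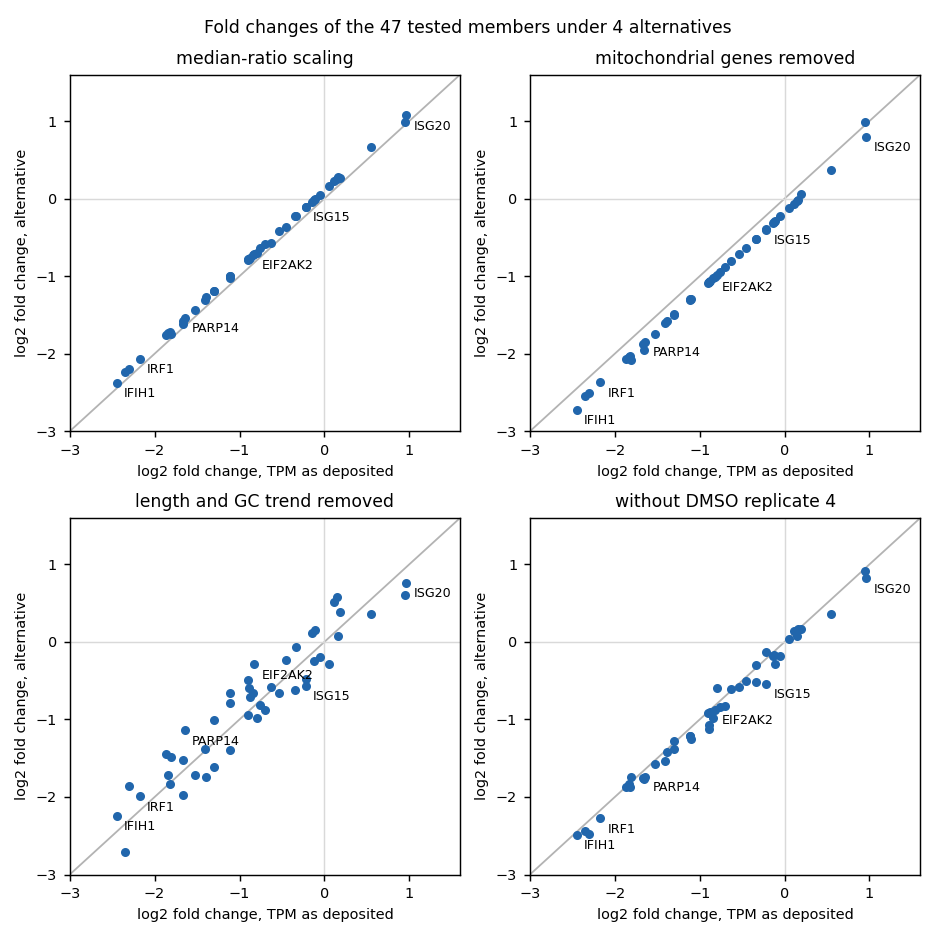
Log2 fold change of the 47 tested members under 4 alternatives (vertical axis) against that from the TPM as deposited (horizontal axis), with the line of equality. Points near IFIH1 and IRF1 stay far below 0 in all 4 plots, EIF2AK2 moves to -0.29 with the length and GC correction, and ISG15 moves from -0.22 to -0.54 without DMSO replicate 4.

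Beyond the members, 82 other genes of the pathway were listed, of which 52 were tested, with 23 lower (44.2%), 2 higher and 27 not called, against 25.1% of all tested genes lower and 15.2% higher. Their median log2 fold change was -0.36, against -0.11 for all tested genes. DDX60, APOL6 and GBP3 passed the filter through their DMSO libraries alone, and without them 20 of 49 were lower (40.8%). The ligands could not be measured. All 11 interferon genes listed, among them IFNB1, IFNG and IFNL1, were at 0 in every library. Of the Janus kinases that couple the receptors to the STAT proteins, none was called. JAK1 was at 31.0 to 38.7 TPM in DMSO and 26.2 to 32.2 TPM in EB, with an adjusted p of 0.0619, and TYK2 had a log2 fold change of -0.03. JAK2, at 1.15 to 1.93 TPM in DMSO, had an adjusted p of 0.175. IFNLR1, the specific chain of the interferon lambda receptor, fell from 2.39 ± 0.596 to 1.19 ± 0.374 TPM (log2 fold change -0.63, adjusted p = 0.0153).

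Of 6 negative regulators listed, 5 were tested, with 2 lower and 1 higher, beside 25.1% and 15.2% of all tested genes. PIAS1 fell (log2 fold change -0.46, adjusted p = 0.0296 in limma), and PTPN2 and PTPN11 were not called. The SOCS inhibitors of Janus kinase signaling went in opposite directions. SOCS1, which blocks Janus kinases, was at 4.81, 3.56, 5.91 and 2.96 TPM in DMSO and 12.9, 12.8, 9.92 and 12.4 TPM in EB, without overlap (log2 fold change 1.32, SE 0.18, adjusted p = 0.000775). SOCS3, which mainly restrains receptors of the IL-6 family, was at 8.95, 9.08, 8.68 and 5.54 TPM in DMSO and 3.13, 2.66, 2.19 and 1.75 TPM in EB, also without overlap (log2 fold change -1.40, SE 0.18, adjusted p = 0.000591).

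In the relay between sensors and interferon genes, 6 of 10 genes were tested. TICAM1, the adaptor of TLR3, was the only one called (log2 fold change -0.37, adjusted p = 0.0494 in limma). Thus 16.7% of those tested were lower and none was higher, beside 25.1% and 15.2% of all tested genes. MAVS, the mitochondrial adaptor of RIG-I and MDA5, was at 49.2, 49.3, 53.6 and 8.19 TPM in DMSO and 27.6, 11.8, 24.7 and 9.33 TPM in EB. DMSO replicate 4 was below all EB libraries, and the log2 fold change of -0.93 was not called (adjusted p = 0.22). TBK1, the kinase that activates IRF3, differed by -0.01.

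Among 43 further interferon-induced genes, 32 were tested, 19 fell (59.4%) and LY6E alone rose, beside 25.1% and 15.2% of all tested genes. The 19 include DDX60, APOL6 and GBP3, for which a low EB level was built into their selection. Those with a log2 fold change under -1 included PARP10 (-1.60) and PARP12 (-1.23), which are mono-ADP-ribosyltransferases like PARP14. RNF213, a large ubiquitin ligase, was at 36.3, 38.4, 42.6 and 19.0 TPM in DMSO and 11.8, 12.9, 8.95 and 9.32 TPM in EB, all EB libraries being lower (log2 fold change -1.53, adjusted p = 0.00137, and -0.99 with the length and GC correction). WARS1, the tryptophanyl-tRNA synthetase induced by interferon gamma, was at 465.4, 383.2, 348.6 and 370.9 TPM in DMSO and 140.1, 165.7, 197.5 and 200.2 TPM in EB. It was among the most abundant of these genes, and its groups were separate (log2 fold change -1.16, adjusted p = 0.000644). APOL6 (-1.41), GBP3 (-1.25), HELZ2 (-1.21), DDX60 (-1.13), APOL1 (-1.06), MOV10 (-1.06) and SAMHD1 (-1.02) fell as well, although APOL1 missed the threshold without EB replicate 2 (adjusted p = 0.0519), with median-ratio scaling (0.0531), with quantile normalization (0.142) and with the length and GC correction (0.0681). That correction also brought HELZ2 to -0.66, DDX60 to -0.71 and APOL6 to -0.86. With a pseudocount of 0.1, in contrast, DDX60 was at -2.25, APOL6 at -2.25 and GBP3 at -2.14. LY6E, a membrane protein with antiviral activity, went from between 89.0 and 164.6 TPM in DMSO to between 182.1 and 233.2 TPM in EB (log2 fold change 0.61, adjusted p = 0.0301). CXCL10, a chemokine widely used to read out the pathway, was at 0.146 to 0.666 TPM in DMSO and listed at 0 in all EB libraries, below the filter.

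**Figure D5:**
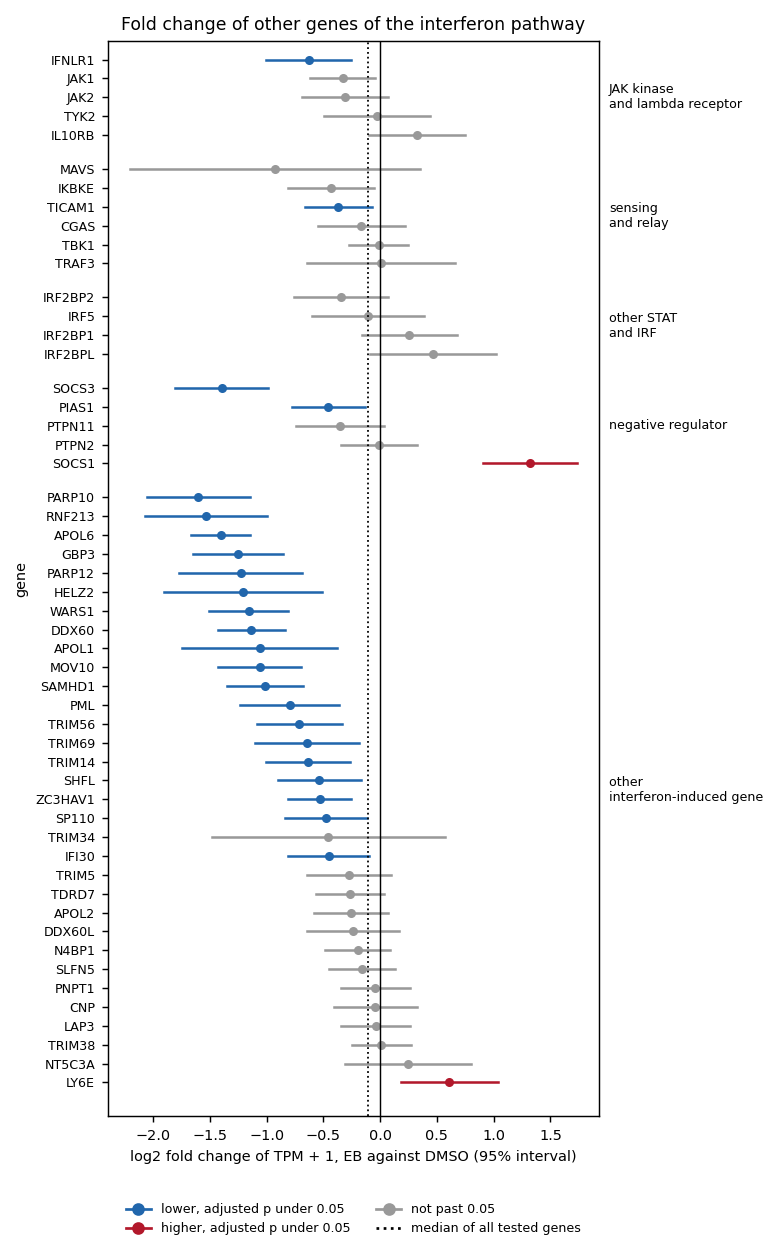
Log2 fold change of TPM + 1, EB against DMSO, with its 95% interval for the 52 tested other genes of the interferon pathway, in the same colors as for the members. Most points lie left of 0, SOCS1 is at 1.32 on the right, and JAK2, TYK2 and most relay genes have intervals that include 0.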

How the data were processed

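The RNA was from PANC-1 cells, and mRNA libraries were prepared and sequenced on an Illumina instrument. Per the methods, the authors trimmed, mapped and normalized the reads in CLC Genomics Workbench and deposited TPM. HISAT2 and StringTie are listed among additional tools, both a mouse and a human build are named, and the annotation is not given in the sources used here. The identifiers were human. Of 20263 genes, 20148 matched a symbol in GENCODE 44 on hg38 and 115 did not. Libraries were grouped by title.

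TPM were tested on log2(TPM + 1) by limma 3.58.1 in R 4.3.3 (eBayes, Benjamini-Hochberg adjustment over the 11725 genes that reached a TPM of 1 in 4 libraries or more). Fold changes are on that scale and understate changes of low genes. Depth and counting error are unknown. The script was tested on simulated data. The members and lists were chosen with earlier results of these data known. All members could be named, and an item of the pathway list is not reported here. Values per library were given for called members with an absolute log2 fold change above 1 and for the 3 with the largest change in each role, and for others chosen after their values were seen. Alternatives were another pseudocount and filter, 4 corrections for scale or composition, a replicate block, an intensity trend, and leaving out each library.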

Additional observations from a re-analysis of the deposited data

Results flagged for a closer look

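In 94 groups of 4 libraries, 10 held a library that was farther from the others than Dixon's 95% critical value allows, where chance gives about 1 in 20 groups. The groups are genes measured in the same libraries and are not independent, so the 10 cannot be weighed against that rate. DMSO replicate 4 was the low library in 6 of the 10, at 12.2 TPM for IFNAR1, 10.9 for STAT2, 19.8 for OAS3, 107.3 for UBE2L6, 27.9 for TRIM25 and 14.6 for PARP14. It also had the highest mitochondrial share, 39.0%, and the part of that share in these values was not tested. Elsewhere, DMSO replicate 3 was low for OAS2 at 1.90 TPM, and DMSO replicate 2 was high for TRIM21 at 47.4 TPM. EB replicate 4 was high for IFITM3 at 286.2 TPM, and EB replicate 2 was high for SP100 at 39.2 TPM.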

How the results depend on the processing

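The number of members that fell, 30 of 47, lay between 25 and 33 under the alternatives that kept all libraries. It was 29 to 32 with a library left out. Among those fits the share of all tested genes was counted only without DMSO replicate 4, where 37.0% fell and 15.6% rose. The 25 were of 40 tested with a TPM minimum of 5 (62.5%). With no filter on low values 33 of 53 fell (62.3%). In neither of these settings was the share of all tested genes counted. With mitochondrial genes removed 33 of 47 fell (70.2%), beside 41.3% of all tested genes. The number past the study's cutoffs, 12, was between 10 and 14, and 11 to 13 with a library left out. The share of all tested genes past these cutoffs was counted in the main fit only. The number of other pathway genes that fell, 23 of 52, was between 16 and 32, and 17 to 29 with a library left out. The 16 of 52 came with the length and GC correction, where 21.8% of all tested genes fell. The 32 of 52 came with mitochondrial genes removed, where 41.3% of all tested genes fell. The members that rose numbered 1 with a TPM minimum of 5, where IFI27 was too low to be tested. They numbered 5 with quantile normalization, 4 with median-ratio scaling and 5 with the length and GC correction. Of all tested genes, 23.8%, 25.9% and 24.5% rose under these settings in that order, against 15.2% in the main fit. With a library left out 1 to 3 members rose. The cause of these shifts was not tested. Signs turned only for members that were not called. USP18 was at 0.048 with median-ratio scaling and 0.23 after quantile normalization, and between -0.19 and 0.0095 with a library left out, being positive without DMSO replicate 3 (0.0095) or EB replicate 3 (0.0074). With quantile normalization IFNAR2 was at 0.10, IFIT5 at 0.15 and PLSCR1 at 0.061. With the length and GC correction IFNAR2 was at 0.15, IFIT5 at 0.11 and IFI6 at -0.29. With mitochondrial genes removed IFNAR1 was at -0.032, IFNGR1 at -0.015, IFI6 at -0.13 and SP100 at -0.072. Replicate numbers did not pair the libraries, as residuals of same-numbered libraries correlated at 0.183, 0.046, -0.088 and 0.284. With the replicate block 30 of 47 members fell and 3 rose, IRF3 being the one added. The share of all tested genes was not counted for the block. Depth is unknown, so differences in genes near 1 TPM are the least certain.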
